A study of Mus musculus with 12 samples.

Results

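The comparison described here is that of the groups coded G4 and G2, taken across all 28997 genes of the table the authors deposited for it, which is every gene listed in the series' 4 comparison tables. RNA came from the soleus, a postural muscle of the hind limb built mostly of oxidative fibres, of 12 mice, and each library was prepared with a stranded mRNA kit. The 4 groups of 3 mice were Cdh5cre-WT mice on chow, Cdh5cre-WT mice on a high-fat diet, Cdh5Cre-NOX1CKO mice on chow and Cdh5Cre-NOX1CKO mice on a high-fat diet, each kept on its diet for 8 weeks. All groups therefore carried the Cre recombinase, which the Cdh5 promoter drives in endothelial cells, so a deletion of Nox1 would concern the vessel lining and only a small part of the RNA of whole muscle. The labels give no strain, sex or age. The series' title places the study among endothelial NOX1, obesity and the mitochondria of skeletal muscle. No label links the codes G1 to G4 to a genotype or a diet, so the groups keep their codes, and a difference below is one between G4 and G2 and is assigned to neither factor.

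Oxidative muscle takes up fatty acids through CD36 and binding proteins, activates them to acyl-CoA, carries them into mitochondria by the carnitine shuttle and shortens them by beta-oxidation. Peroxisome proliferator-activated receptors, abbreviated PPARs, are nuclear receptors that bind fatty acids and raise the genes for these steps, together with Pdk4, which slows the entry of pyruvate into mitochondria, and Ucp3, a mitochondrial carrier. Type I and type II interferons raise another programme, made of antiviral proteins and of the machinery that loads peptides onto class I MHC molecules. The listed genes of each programme are known to be controlled together.

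For each gene the authors' deposited table gave a total over the 12 libraries, a fold change, a p-value and, for 14539 genes with a total of at least 159.9, a p-value adjusted by the step-up procedure. The totals were taken as normalised reads and came to a mean of 24905255 per library. No value per mouse was given, so neither a standard deviation nor the overlap of single mice can be shown, and the error printed beside a log2 fold change is the standard error implied by its p-value, 0.18 at the median of the 15494 genes whose total reached 100. The mean level of a gene in each group was rebuilt from the total and the fold changes of 3 comparisons. Its unit is normalised reads per library, and it can be compared between groups but not between genes. Such levels are printed as 4 values in the order G1, G2, G3 and G4. The implied errors fitted 1 shared spread for all groups, a coefficient of variation between mice of 13.2% at the median. P-values measure the spread between these mice only.

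Nox1 could not check the labels, since its rebuilt level was 1.93, 3, 1.65 and 1.83 normalised reads per library, each with a standard error of 58.1% to 65.5%. The endothelial gene Cdh5, a cadherin of vessel junctions, stood at 4184, 3939, 4508 and 4619, and its log2 fold change of 0.23 ± 0.14 did not pass the test per the authors' deposited table. Myh7, the myosin of slow fibres, was at 221530 to 311382 normalised reads per library and Myh2, the myosin of fast oxidative fibres, at 358982 to 385555, so both myosins that define the soleus were abundant, and Myh2 is named after its values were seen. None of 11 markers of T, B and NK cells reached a total of 100.

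Per the authors' deposited table, 200 of 14539 tested genes (1.38%) had an adjusted p under 0.05 and are termed called. Of these, 149 were higher in G4 (1.02% of tested genes) and 51 lower (0.351%). The median fold was 1.57 for genes called higher and 1.6 for those called lower, and 31 and 10 of them reached a fold of 2. An unadjusted p under 0.05 was found for 1403 of 15494 genes (9.06%). Over all 15494 the median log2 fold change was 0.00034 and 50.1% of values were positive. This is the background for every gene list below. The most abundant of 4 equal parts of the tested genes, from a mean of 30.1 CPM (reads in each 1000000) upwards, held 99 calls, and the least abundant part held 18. The implied standard error fell from 0.370 to 0.0968 between them, so that the median fold of a called gene was 3.53 in the scarce part and 1.37 in the abundant one. The split between the directions depended on the scaling. When the summed levels of G4 and G2 were set equal, 119 genes were called higher and 65 lower, and 104 and 75 when the ribosomal RNA gene CT010467.1 was also left out of the sums, a setting chosen after seeing the data. These settings lowered every log2 value by 0.029 and 0.043.

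**Figure D1:**
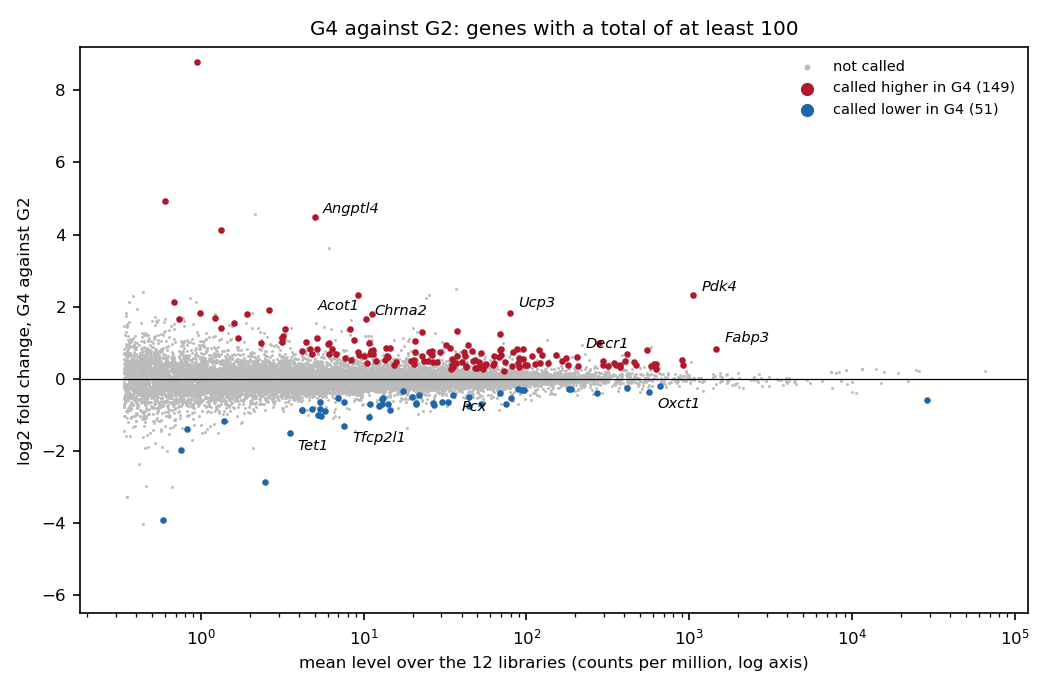
Each point is 1 of the 15494 genes whose total reached 100, placed by its mean level over the 12 libraries in CPM (log axis) and by its log2 fold change for G4 against G2. Red points mark the 149 genes called higher in G4 and blue points the 51 called lower, and among abundant genes small folds were called, while Angptl4, Pdk4 and Ucp3 stood far above the rest at their levels.

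Genes of mitochondrial fatty acid oxidation were higher in G4 than in G2. Of 24 listed genes 14 were called higher and none lower, 21 had positive values, and the median log2 fold change was 0.36. The smallest adjusted p of the whole comparison belonged to Decr1 (chromosome 4, 15917240 to 15945507, GRCm38), the 2,4-dienoyl-CoA reductase that prepares unsaturated fatty acids for oxidation. Its level was 4109, 3856, 6548 and 5908 normalised reads per library, with standard errors of 2.82% to 2.88% of these values, so that G3 and G4 stood together above G1 and G2. The log2 fold change was 0.62 ± 0.058 per the authors' deposited table (adjusted p = 5.51e-22). Ech1, which moves double bonds along the chain, was at 7906, 7725, 12923 and 12482, and rose by 0.69 ± 0.11 per the authors' deposited table (adjusted p = 1.26e-07). Eci2, another isomerase of double bonds, rose by 0.46 in the same direction per the authors' deposited table. Ech1 and Decr1, which handle unsaturated chains, had the 2 largest log2 values of the list, followed by Hadhb of the trifunctional protein.

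The steps of the oxidation cycle rose by similar, smaller amounts. The acyl-CoA dehydrogenases, which open each round and differ in the chain length they accept, rose by 0.37 (Acadvl, very long), 0.40 (Acadl, long), 0.28 (Acadm, medium) and 0.39 (Acads, short), with implied standard errors of 0.059 to 0.085, per the authors' deposited table. The levels of Acadl were 13384, 12754, 17341 and 16845, and those of Acadvl were 13073, 12409, 16555 and 16028. Acadm lost its call when summed levels were set equal without the ribosomal RNA gene. The 2 subunits of the trifunctional protein, which carries out the later steps on long chains, rose by 0.39 (Hadha) and 0.50 (Hadhb) per the authors' deposited table. Reads of Hadhb may be shared with its processed copy Hadhb-ps, which rose by 0.38 per the authors' deposited table, so the split between them is uncertain. Hadh, the short-chain dehydrogenase, rose by 0.39 and the thiolase Acaa2 by 0.43 per the authors' deposited table. Etfdh, which passes the electrons on to ubiquinone, rose by 0.35 per the authors' deposited table, with levels of 7352, 6607, 9089 and 8442.

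The carnitine shuttle, which carries activated fatty acids across the inner membrane, rose in its carrier, its inner transferase and the Cpt1a form of its outer transferase. The carrier Slc25a20 stood at 3072, 2791, 3954 and 3762 normalised reads per library. The inner transferase Cpt2 stood at 2777, 2431, 3541 and 3270. They rose by 0.43 ± 0.078 and 0.43 ± 0.079 per the authors' deposited table. Cpt1b, the outer transferase of muscle and the regulated step, had 0.16 ± 0.073 and was not called per the authors' deposited table (adjusted p = 0.441). Cpt1a, the form best known from liver, was called, with 0.86 per the authors' deposited table and levels of 318, 243, 438 and 442. Cpt1a is in none of the lists, and both transferases were picked after their values were seen. Mlycd, which breaks down malonyl-CoA, the inhibitor of that outer step, rose by 0.65 ± 0.15 per the authors' deposited table. Its level was 3024, 2279, 3484 and 3580, lowest in G2.

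Peroxisomal oxidation moved in a few members. Of 16 measured genes 3 were called higher and 10 were positive, with a median of 0.031 that turned to -0.012 with summed levels set equal without the ribosomal RNA gene. Pex11a, which drives peroxisome division, was at 536, 459.7, 799 and 767 and rose by 0.74 ± 0.11 per the authors' deposited table (adjusted p = 1.26e-07). Hsd17b4, the bifunctional enzyme, rose by 0.35 per the authors' deposited table.

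Among 19 listed targets of PPARs, 13 were called higher, all 19 were positive and the median log2 fold change was 0.74, the highest of all lists. The lowest value, 0.0079 for Lpl, turned negative with summed levels set equal. Some of these targets, such as Cpt1b, also stand in the lists of fatty acid oxidation. Several had a pattern unlike that of Decr1. Ucp3 (chromosome 7, 100472990 to 100486432) was at 2442, 683, 2295 and 2419 normalised reads per library, with a standard error of 16.2% in G2. Pdk4 was at 27653, 7459, 32512 and 37389, with one of 27.6% in G2. Angptl4, a secreted inhibitor of lipoprotein lipase, was at 91.4, 11.8, 134 and 262, with standard errors of 47.8% in G2 and 44.8% in G4. In all 3 genes G2 was the low group. For Ucp3 and Pdk4 the levels of G1, G3 and G4 differed by less than 1 implied standard error of such a difference, whereas Angptl4 was 0.96 on the log2 scale higher in G4 than in G3 per the authors' deposited table without passing the test (adjusted p = 1). The folds of G4 over G2 were 3.54 for Ucp3, 5.01 for Pdk4 and 22.2 for Angptl4, from log2 values of 1.82 ± 0.33, 2.33 ± 0.56 and 4.48 ± 0.94 per the authors' deposited table (adjusted p = 1.64e-05, 0.00709 and 0.000576). These were also genes with a large implied spread between mice, 27.8%, 47.9% and 77.4% as a coefficient of variation, against 4.72% for Decr1.

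The binding protein Fabp3, which carries fatty acids in the cytosol of muscle, was at 30889, 24670, 46397 and 44181 and rose by 0.84 ± 0.14 per the authors' deposited table. Its processed copy Fabp3-ps1 rose by 0.79 per the authors' deposited table, so reads may be shared between the pair. The fatty acid transporter Cd36 rose by 0.41 ± 0.10 and the acyl-CoA synthetase Acsl1, which activates long chains, by 0.52 ± 0.10 per the authors' deposited table. Lpl, the lipase that frees fatty acids from lipoproteins in the capillary, had 0.0079 ± 0.084 per the authors' deposited table and is given after its value was seen. In all, 4 of 17 genes of uptake and activation were called higher and 16 were positive. Slc25a34, a mitochondrial carrier of the PPAR list, rose by 0.83 ± 0.19 per the authors' deposited table, with levels of 1637, 1097, 2309 and 1947.

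Acyl-CoA thioesterases split acyl-CoA back to free fatty acid, and 3 of 11 were called higher. They were the neighbouring genes Acot1, Acot2 and Acot4 on chromosome 12, at 125, 949.7 and 14.5 normalised reads per library in G2 and 432, 2265 and 46.8 in G4. Their log2 fold changes were 1.79 ± 0.26, 1.25 ± 0.20 and 1.69 ± 0.45 per the authors' deposited table (adjusted p = 2.19e-08, 3.40e-07 and 0.0191). Acot1 and Acot2 are close copies of each other, so that reads may have been divided between them. The other 8 measured members lay between -0.30 and 0.13.

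Promoters were read from the RefSeq table on GRCm38.p6, from 250 bases before to 50 bases after each start, for 113 of the 149 genes called higher and 37 of the 51 called lower. A direct repeat, NGGNCA and AGGNCA separated by 1 base of any kind, the type of element PPARs bind, was searched on both strands. So was the single motif AGGTCA, which many nuclear receptors recognise and which can lie inside the repeat. The repeat was found in 5 promoters of genes called higher (4.42%), in none of those called lower and in 0.929% of all 27025 promoters of the table. It was in 0 of 14 promoters of the PPAR target list and in 0 of 18 of the list of mitochondrial fatty acid oxidation, and the window of Pdk4 held none. The 5 holders were Acot4, Ccdc71l, Chmp4b, Rras and Tomm70a, and none of them is in either list. Each of these calls except that of Acot4 was lost under at least 1 of the other settings of scaling, filter or covariates. The single motif was in 19.5% of promoters of genes called higher, in 16 of 37 of those called lower (43.2%) and in 18.1% of all promoters (14.9% of those of tested genes). Known PPAR elements often lie outside such windows, and a match is a description of letters. The promoters of Acot4 (chr12:84038129-84038428, plus strand, repeat in capitals, read on the minus strand) and Ucp3 (chr7:100472741-100473040, plus strand, single motifs in capitals) are shown because both genes rose and their windows hold one of the motifs.
Acot4: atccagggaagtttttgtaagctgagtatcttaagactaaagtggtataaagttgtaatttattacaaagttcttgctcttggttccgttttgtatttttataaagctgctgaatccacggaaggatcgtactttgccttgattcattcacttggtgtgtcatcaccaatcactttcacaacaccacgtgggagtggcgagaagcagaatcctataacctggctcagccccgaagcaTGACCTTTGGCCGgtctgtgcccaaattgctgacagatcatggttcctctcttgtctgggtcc
Ucp3: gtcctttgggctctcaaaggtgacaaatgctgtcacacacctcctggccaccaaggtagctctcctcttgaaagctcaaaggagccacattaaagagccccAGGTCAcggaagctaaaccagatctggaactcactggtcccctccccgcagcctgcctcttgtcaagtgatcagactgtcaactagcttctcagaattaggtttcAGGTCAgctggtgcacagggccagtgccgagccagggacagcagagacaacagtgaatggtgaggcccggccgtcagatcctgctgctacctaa

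**Figure D2:**
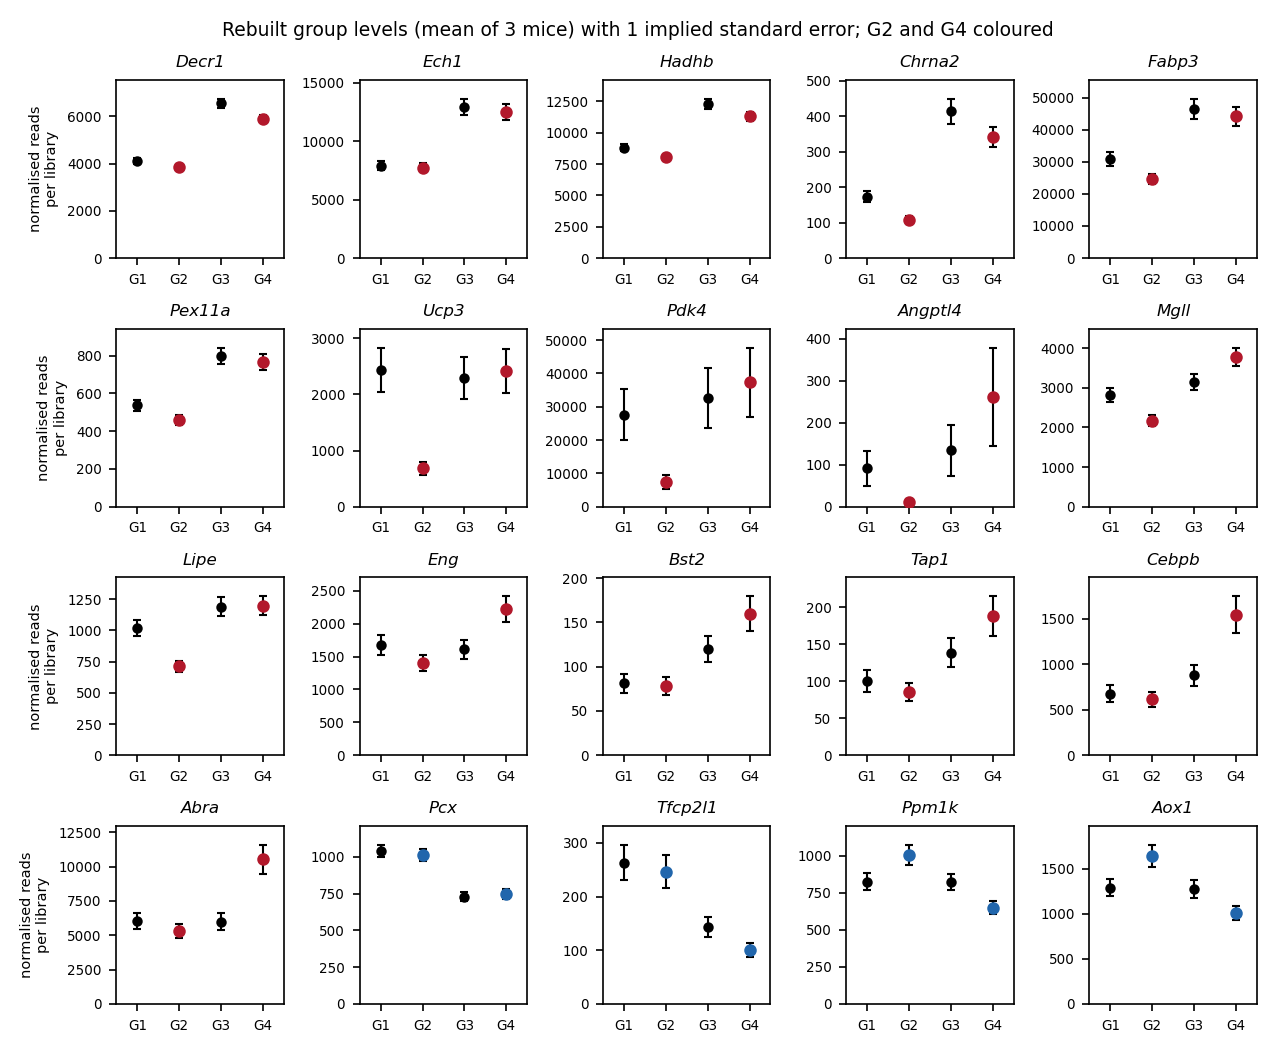
Rebuilt mean levels in normalised reads per library (vertical axes from 0) of 20 genes in groups G1, G2, G3 and G4, with bars of 1 implied standard error. G2 and G4 are red for genes called higher in G4 and blue for those called lower. Decr1, Ech1, Hadhb and Chrna2 were high in both G3 and G4, Ucp3 and Pdk4 were low in G2, and Abra and Cebpb were high in G4.

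Stored fat is coated by perilipins and broken down in sequence by Pnpla2, Lipe and Mgll. Of 17 measured genes of droplets and lipases 6 were called higher, and these included all 3 lipases. Mgll (chromosome 6, 88724412 to 88828360), the last of them, was at 2818, 2169, 3151 and 3774 and rose by 0.80 ± 0.13 per the authors' deposited table (adjusted p = 5.15e-07). Lipe, hormone-sensitive lipase, was at 1017, 712, 1191 and 1196 and rose by 0.75 ± 0.13 per the authors' deposited table (adjusted p = 7.85e-06). Pnpla2, adipose triglyceride lipase, had the least certain call, 0.39 ± 0.12 per the authors' deposited table (adjusted p = 0.0499). It was lost under every alternative to the scaling and to the set of genes adjusted together, and when a dependence on GC content, length and total was removed. The coats Plin2 and Plin5, which link droplets to mitochondria in muscle in the case of Plin5, rose by 0.64 and 0.79 per the authors' deposited table, and Cidea, a droplet protein of brown fat, by 0.82. Abhd5, the activator of Pnpla2, named after its value was seen, had -0.017 ± 0.10 per the authors' deposited table.

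Synthesis of triglyceride moved in 2 of 17 genes, both enzymes of its early steps. The glycerol phosphate acyltransferase Gpat3 was at 135, 97.9, 178 and 192 and rose by 0.97 ± 0.18, and the next enzyme, Agpat2, rose by 0.64 ± 0.15, per the authors' deposited table. The final enzymes Dgat1 and Dgat2, named after their values were seen, had 0.11 ± 0.17 and 0.25 ± 0.18 per the authors' deposited table.

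The lipid sensors LXR and SREBP gave a mixed picture. Srebf1, which encodes SREBP1 and is itself an LXR target, was at 729, 734, 1467 and 1402 and rose by 0.93 ± 0.16 per the authors' deposited table (adjusted p = 3.55e-06). It was the sole call among 16 lipogenic genes. The desaturase Scd1 had 1.08 ± 0.63 and the fatty acid synthase Fasn -0.96 ± 0.45, and neither was called per the authors' deposited table. Of 14 LXR targets and exporters 3 were called higher, Srebf1 with the cholesterol exporter Abca1 (0.86 ± 0.19) and the phospholipid remodelling enzyme Lpcat3 (0.74 ± 0.13) per the authors' deposited table. Abca1 was at 562, 537, 1294 and 974. The exporter Abcg1 had 0.75 ± 0.28 and was not called per the authors' deposited table (adjusted p = 0.225). Cholesterol synthesis had 0 called genes of 21, 7 positive values and a median of -0.18, with 6 members at an unadjusted p under 0.05. Its lowest value was that of the squalene epoxidase Sqle, -1.69 ± 0.60 per the authors' deposited table (adjusted p = 0.169).

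Carbohydrate use was marked by single enzymes. Pdk4, described above, inhibits the pyruvate dehydrogenase complex, and it was the sole call among 14 genes of pyruvate entry. The other members had log2 values from -0.45 (Pdp1) to 0.44 (Pdp2), both of them phosphatases of that complex, per the authors' deposited table. Pcx (chromosome 19, 4510472 to 4621752), pyruvate carboxylase, which feeds pyruvate into the citric acid cycle as oxaloacetate, was at 1038, 1009, 729 and 746 and fell by 0.44 ± 0.084 per the authors' deposited table (adjusted p = 8.36e-05). Fbp2, the muscle fructose bisphosphatase, was at 169, 117, 227 and 303 and rose by 1.37 ± 0.26 per the authors' deposited table (adjusted p = 3.72e-05). Glycolysis had 1 call in each direction among 21 genes and a median of 0.027, which was -0.0016 with summed levels set equal. The call higher was the liver-type phosphofructokinase Pfkl (0.76 ± 0.22) and the call lower the heart-type lactate dehydrogenase subunit Ldhb (-0.19 ± 0.052) per the authors' deposited table, and both were lost when every gene was adjusted together. Glycogen genes had 0 calls of 19, with 3 at an unadjusted p under 0.05.

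Oxct1, which activates ketone bodies for oxidation, was at 16267, 15758, 11976 and 12357 and fell by 0.35 ± 0.09 per the authors' deposited table (adjusted p = 0.0142). It was the sole call among 8 genes of ketone metabolism. Breakdown of branched-chain amino acids had 3 calls lower and none higher among 19 genes, with a median of -0.12. Ppm1k (chromosome 6, 57506502 to 57535468), the phosphatase that activates the branched-chain dehydrogenase complex, was at 826, 1006, 823 and 649 and fell by 0.63 ± 0.14 per the authors' deposited table (adjusted p = 0.00111). The dehydrogenases Acadsb and Ivd, which act later on isoleucine and leucine, fell by 0.31 ± 0.08 and 0.29 ± 0.076 per the authors' deposited table. Ppm1k was highest in G2 and lowest in G4, with G1 and G3 between them.

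The respiratory chain gave no call. Nuclear genes of complex I had 34 positive values of 37 with a median log2 of 0.062, and those of complexes II to V 37 of 42 with 0.044. With summed levels set equal without the ribosomal RNA gene the medians were 0.018 and 0.00085. The medians as deposited are below the implied standard error of a single member, 0.081 and 0.079. At an unadjusted p under 0.05 there were 1 and 5 members. The genes of the mitochondrial genome stood apart in size. All 13 had positive values, 10 had an unadjusted p under 0.05, none was called, and the median was 0.21. Their summed level was 4765103, 4451441, 5272453 and 5170455 in that order of groups, lowest in G2. The citric acid cycle had 0 calls, 16 positive values of 17 and a median of 0.071, or 0.028 under that scaling. Regulators of mitochondrial biogenesis had 0 calls of 23, and the coactivator Ppargc1a, with 0.61 ± 0.50 per the authors' deposited table, was too variable for its size to be told from 0. The receptors themselves, Ppara at 0.071 ± 0.36, Ppard at -0.18 ± 0.11 and Pparg at 0.38 ± 0.21, were not called per the authors' deposited table, and the first 2 are given after their values were seen. Fusion, fission and mitophagy genes had 0 calls of 18, within -0.18 and 0.23.

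Genes of the interferon response were positive throughout as deposited. All 39 measured genes had positive values, the median log2 fold change was 0.59, and 21 had an unadjusted p under 0.05. Ddx60 at 0.0049 and Ifi35 at 0.033, named after their values were seen, turned negative with summed levels set equal without the ribosomal RNA gene. Over all genes 1 was called, a share of the list near that of all tested genes, so the list is described by its direction and median. The called gene was Bst2 (chromosome 8, 71534255 to 71537456), the tetherin that holds budding viruses at the cell surface. It was at 81.2, 78.1, 120 and 159.7 normalised reads per library and rose by 1.03 ± 0.26 per the authors' deposited table (adjusted p = 0.0115). The largest values were those of the GTPase Iigp1, 2.25 ± 0.80, the RNA sensor enzyme Oas1a, 1.69 ± 0.56, and the antiviral radical SAM enzyme Rsad2, 1.36 ± 0.50, per the authors' deposited table (adjusted p = 0.169, 0.122 and 0.193). Oas1a was at 15.6, 8.54, 25.2 and 27.5, highest in G4. The implied spread between mice was wide for this list, a coefficient of variation of 23.2% at the median against 6.16% for fatty acid oxidation. Summed over the list, levels were 8847, 8167, 9557 and 13128 from G1 to G4. In G3 against G1, a comparison of other mice, 33 of the 39 were positive, with a median of 0.26 and no call.

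Antigen presentation had the same sign. All 22 genes of class I presentation and all 8 of class II were positive, with medians of 0.46 and 0.51. The lowest class I value, 0.038 for Calr, turned negative with summed levels set equal without the ribosomal RNA gene. Tap1, a subunit of the transporter that brings peptides to class I molecules, was called, at 101, 85.5, 139 and 188 and 1.14 ± 0.30 per the authors' deposited table (adjusted p = 0.0149). The class I gene H2-Q7 had 1.34 ± 0.41 per the authors' deposited table (adjusted p = 0.0660), and it belongs to a family of near copies among which reads may be divided. The class II activator Ciita had 1.21 ± 0.54 and the invariant chain Cd74 0.65 ± 0.24 per the authors' deposited table, neither called. Markers of macrophages, which carry class II, had a median of 0.25 with 9 of 14 positive, and their summed level was 2426, 1889, 2356 and 1948 in G1 to G4. Endothelial markers, given below, had mostly positive values too, and the part of these cells in the interferon values was not tested. In bulk muscle, fewer cells of a type and less RNA per cell cannot be told apart.

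The interferon-stimulated response element was searched as GAAA and GAAA separated by 2 bases of any kind, on both strands, in the same promoter windows, which were found for 28 of the 39 interferon genes. It was in 17 of them (60.7%), in 5 of 19 class I genes (26.3%), in 3.53% of tested genes and in 3.99% of all promoters. Genes enter such a list because they answer to interferon, so this share describes the list and not the comparison. Holders included Bst2, Oas1a and Rsad2. The windows of Bst2 (chr8:71537423-71537722, minus strand), Oas1a (chr5:120907476-120907775, minus strand) and Gbp2 (chr3:142620413-142620712, plus strand, motif read on the minus strand) are shown with the motif in capitals. In Bst2 and Oas1a overlapping matches form 1 longer run of capitals. Gbp2, a guanylate-binding protein, is shown for its motif, chosen after its value was seen, and had 0.78 ± 0.26 per the authors' deposited table, not called.
Bst2: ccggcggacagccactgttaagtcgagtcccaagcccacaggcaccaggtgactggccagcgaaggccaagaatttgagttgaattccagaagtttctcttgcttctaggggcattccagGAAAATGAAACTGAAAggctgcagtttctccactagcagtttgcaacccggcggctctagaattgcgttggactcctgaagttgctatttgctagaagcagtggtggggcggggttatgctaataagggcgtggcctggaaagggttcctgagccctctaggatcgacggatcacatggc
Oas1a: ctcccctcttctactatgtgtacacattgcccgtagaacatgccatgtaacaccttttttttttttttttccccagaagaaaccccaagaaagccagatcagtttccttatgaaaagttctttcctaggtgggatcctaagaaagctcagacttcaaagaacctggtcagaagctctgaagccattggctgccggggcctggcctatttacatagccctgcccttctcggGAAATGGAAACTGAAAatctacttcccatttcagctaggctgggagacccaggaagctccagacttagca
Gbp2: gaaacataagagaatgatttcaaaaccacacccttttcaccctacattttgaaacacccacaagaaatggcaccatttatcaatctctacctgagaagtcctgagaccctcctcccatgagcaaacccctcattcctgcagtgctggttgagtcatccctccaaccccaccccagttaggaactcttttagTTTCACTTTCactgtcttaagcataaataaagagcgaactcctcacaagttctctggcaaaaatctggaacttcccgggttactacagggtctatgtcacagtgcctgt

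**Figure D3:**
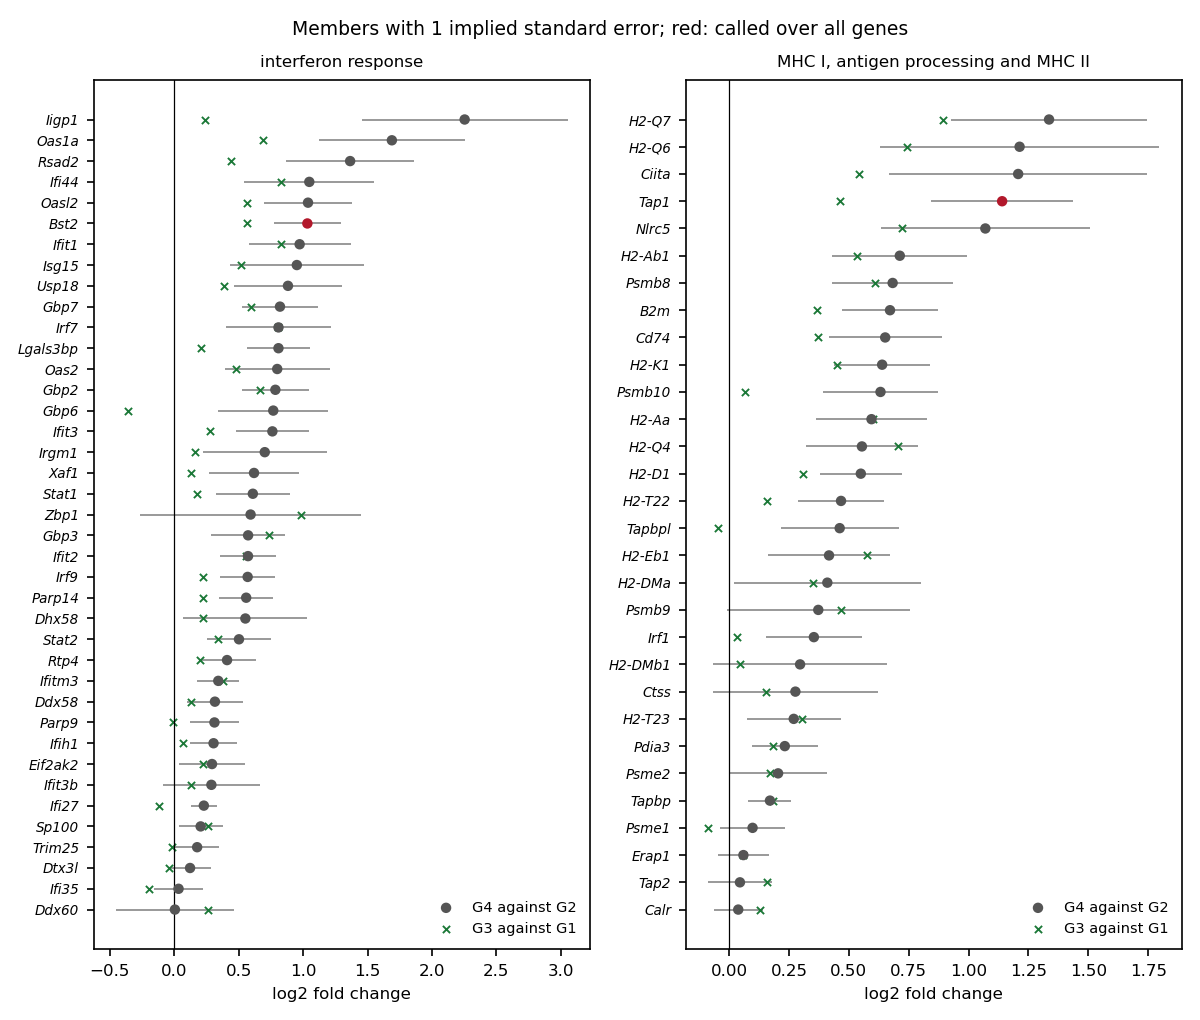
Log2 fold change of each measured gene of the interferon list (left) and of class I and class II presentation (right). Dots are G4 against G2 with bars of 1 implied standard error, red where called over all genes (Bst2 and Tap1), and crosses are G3 against G1, which shares no mice. All dots lie above 0, and most crosses lie to the left of their dots.

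Transcription factors of stress and growth gave isolated calls. Cebpb (chromosome 2, 167688915 to 167690418), a C/EBP factor that answers to inflammatory and metabolic signals, was at 679, 614, 880.3 and 1544 and rose by 1.33 ± 0.27 per the authors' deposited table (adjusted p = 0.000338). G4 stood above the other 3 groups in rebuilt level, but Cebpb was not called in G4 against G3 per the authors' deposited table (adjusted p = 0.660). Its relative Cebpd had 1.18 ± 0.51 and was not called per the authors' deposited table (adjusted p = 0.358). Jund, a subunit of AP-1, was the sole call of 22 immediate early genes, with 0.61 ± 0.13 per the authors' deposited table. That list had 14 positive values and an implied coefficient of variation of 42.7% at the median, so most of its members could not be resolved. Psat1, an enzyme of serine synthesis that ATF4 controls, rose by 0.78 ± 0.20 per the authors' deposited table, whereas the median of 16 ATF4 targets was 0.0062, and -0.023 with summed levels set equal. Asparagine synthetase, Asns, had 1.07 ± 0.37 and was not called per the authors' deposited table.

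Catalase, Cat, which removes the hydrogen peroxide that peroxisomes make, was the sole call among 29 antioxidant genes. It was at 6614, 6028, 8993 and 7904 and rose by 0.39 ± 0.11 per the authors' deposited table (adjusted p = 0.0238), a call that was lost when summed levels were set equal. The NADPH oxidase list, to which Nox1 belongs, had 8 of 14 members measured, no call and no member with an unadjusted p under 0.05. Nox4 had 0.38 ± 0.30 and Ncf1, the phagocyte subunit, 0.51 ± 0.49 per the authors' deposited table. Clock genes had 0 calls and 3 positive values of 19, with a median of -0.21 and no member at an unadjusted p under 0.05. Glucocorticoid-response genes had 0 calls of 16, and genes of atrophy 1 of 25, which was Cebpb.

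Fibre genes had mostly negative values and no call. Of 15 slow-fibre genes 2 were positive, with a median of -0.18, and of 15 fast-fibre genes 0, with a median of -0.14. Myh7 was at 221530, 311382, 226936 and 240300 normalised reads per library, highest in G2, and had -0.37 ± 0.14 per the authors' deposited table (adjusted p = 0.241). The related myosin Myh7b had -0.53 ± 0.17 and the slow light chain Myl3 -0.20 ± 0.071 per the authors' deposited table, and both became calls after a dependence on GC content, length and total was removed. Fast Myh4 had an implied coefficient of variation of 151% and levels of 58846, 24222, 18192 and 19194, so its value of -0.34 ± 1.77 per the authors' deposited table carries little information. Summed slow-fibre levels ran 649433, 817236, 646627 and 703788 in G1 to G4. Genes of calcium release and reuptake had 4 positive values of 24, a median of -0.068 (-0.11 with summed levels set equal without the ribosomal RNA gene), 6 members at an unadjusted p under 0.05 and no call. Hrc, a calcium-binding protein of the reticulum, came nearest with -0.20 ± 0.066 per the authors' deposited table (adjusted p = 0.123), and was called when summed levels were set equal.

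The synapse list held 1 of the firmest calls. Chrna2 (chromosome 14, 66135039 to 66152948), a nicotinic receptor subunit that is not part of the synaptic receptor of adult muscle, was at 173, 108, 413 and 341 and rose by 1.66 ± 0.18 per the authors' deposited table (adjusted p = 1.59e-15). It was the sole call of 18 genes of the receptor and the synapse. Chrna2 was high in G3 as well as G4. Lrp4, the agrin receptor of the synapse, had -0.56 ± 0.17 and was not called per the authors' deposited table, but was with summed levels set equal, with or without the ribosomal RNA gene. Hdac9, a class IIa histone deacetylase that represses MEF2, was at 311, 460.4, 419 and 255 and fell by 0.85 ± 0.24 per the authors' deposited table (adjusted p = 0.0305), a call lost when every gene was adjusted together. Of 14 genes of that list 3 were positive. A loose pattern for a MEF2 element, CTA and TAG separated by 4 bases of any kind, was searched on either strand. It stood in 5 of 37 promoters of genes called lower (13.5%), among them Hdac9, Ldhb and Tfcp2l1. The pattern was in 3 of 113 promoters of genes called higher and in 4.23% of all. A match describes letters, and binding by MEF2 was not tested.

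Most endothelial markers had positive values. Of 20 endothelial markers 19 were positive with a median of 0.26, and 3 were called higher, Eng, Cd36 and Fabp4, of which muscle fibres also express Cd36 and fat cells Cd36 and Fabp4. Eng, a coreceptor for TGF-beta on endothelium, was at 1673, 1404, 1610 and 2218 and rose by 0.66 ± 0.18 per the authors' deposited table (adjusted p = 0.0283). Flt4, the receptor for VEGF-C, rose by 0.45 ± 0.13 per the authors' deposited table (adjusted p = 0.0364). The calls of Eng and Flt4 were lost when every gene was adjusted together, and that of Eng also after the dependence on GC content, length and total was removed. With summed levels set equal the calls of Fabp4 and Flt4 were lost, and without the ribosomal RNA gene that of Eng as well, which left Cd36 among the endothelial calls. The summed endothelial level was 47048, 43417, 52660 and 55188 in G1 to G4. Globin and other erythroid genes, a measure of blood in the tissue, were lowest in G2 as well, with summed levels of 4463, 2788, 4234 and 3687. None of these 5 was called, and the part of blood in the vascular values was not tested. Mural cells, which wrap vessels, had 9 positive markers of 11, a median of 0.13 (0.082 with summed levels set equal without the ribosomal RNA gene) and no call.

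Adipocyte markers had a median of 0.37, 11 positive values of 13 and 3 calls higher, Lipe, Cidea and Fabp4. Of these, muscle or vessels also express Lipe and Fabp4. Adiponectin (Adipoq) and leptin (Lep), hormones of fat cells, had 0.72 ± 0.43 and 0.81 ± 0.48 per the authors' deposited table and were not called. Their levels were 156, 90.7, 129 and 149.8 for Adipoq and 84.0, 49.3, 83.3 and 86.4 for Lep, both lowest in G2. The fat cell marker Plin1 had 0.23 ± 0.65 per the authors' deposited table, and Adipoq and Plin1 are given after their values were seen. The part of fat cells in the lipid genes above was not tested. Neutrophil and mast cell markers had 4 measured members, no call and a median of 0.49, or 0.85 when members with a total from 10 upwards were counted. Fibro-adipogenic, Schwann, satellite and tendon cell lists had no call, with medians of 0.069, 0.054, -0.22 and -0.12, of which the first 2 became 0.025 and 0.011 under the same scaling. Collagens and matrix had 21 positive values of 27 and no call. Cytosolic ribosomal proteins had 0 calls of 76 and a median of 0.022, or -0.0074 with summed levels set equal, and the proteasome 0 of 31.

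**Figure D4:**
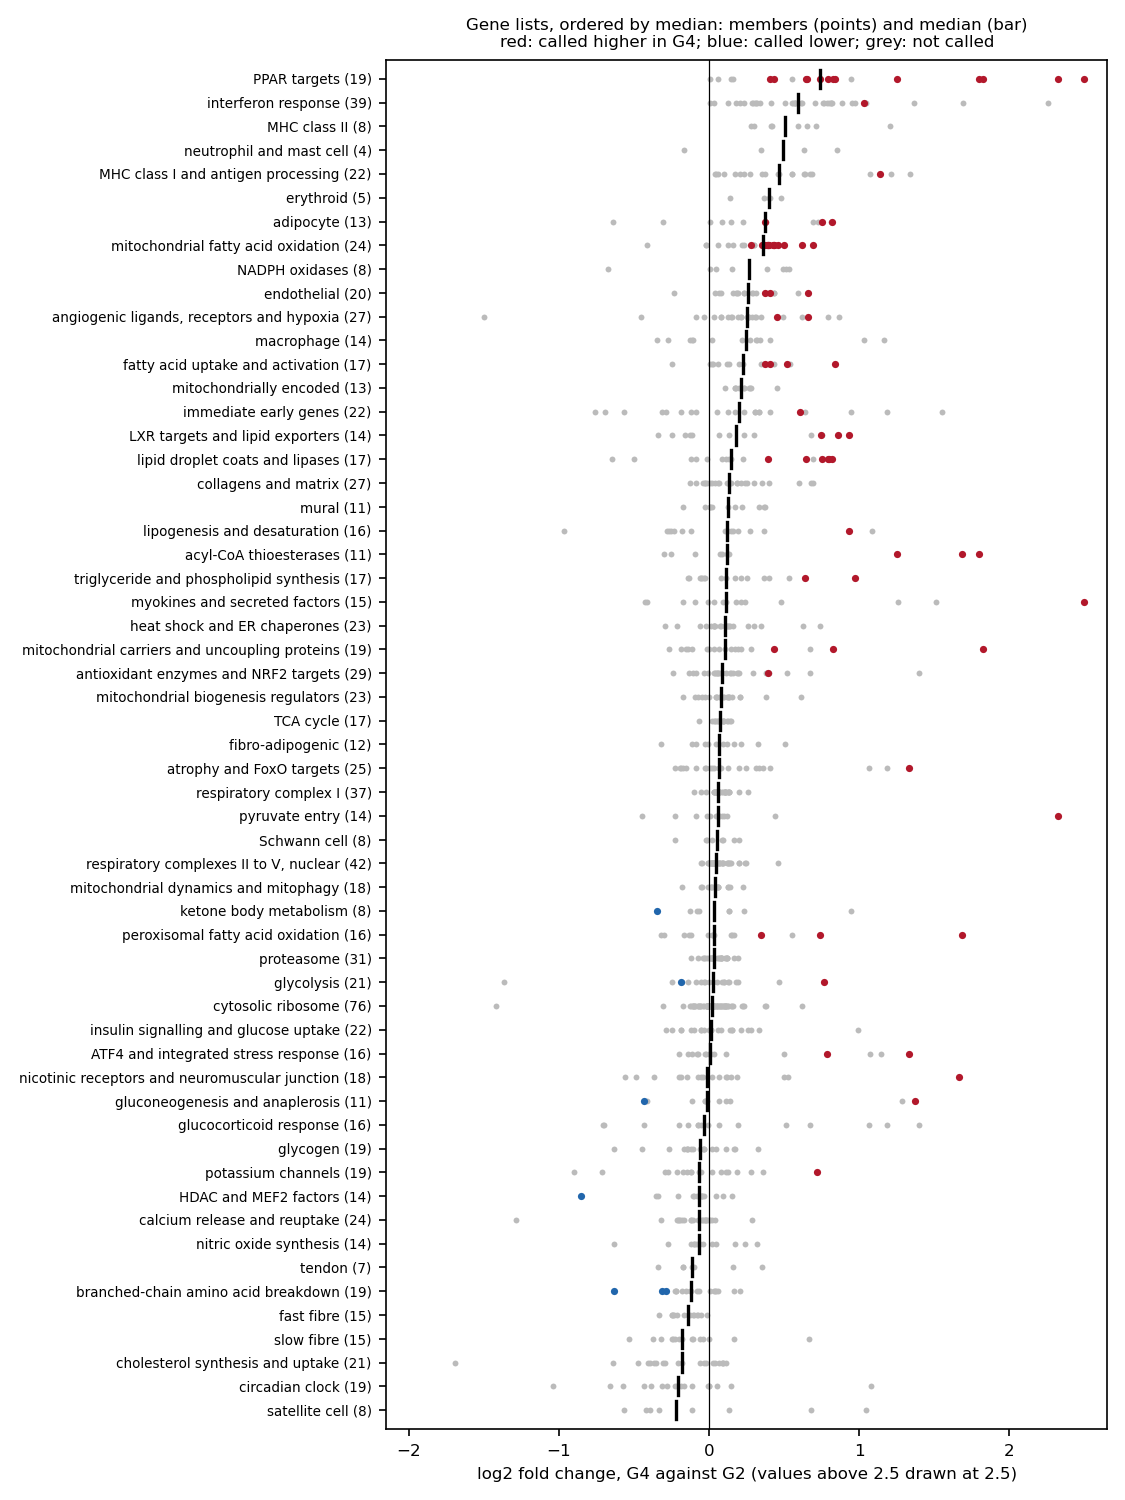
Gene lists with at least 4 measured members, ordered by the median log2 fold change of G4 against G2 (black bars), with each member as a point, red where called higher, blue where called lower and grey where not called. PPAR targets with a median of 0.74 and the interferon response with 0.59 stood at the top, and calls were frequent among PPAR targets and fatty acid oxidation but not among interferon genes.

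Of the 200 called genes 58 belonged to a list and 142 to none. Of the 25 calls with the smallest adjusted p in each direction, some lay outside the lists. Among the rises several act on lipids or in peroxisomes. Dbi, the acyl-CoA binding protein, was at 1656, 1551, 2467 and 2607 and rose by 0.75 ± 0.11 per the authors' deposited table (adjusted p = 4.94e-09). Ephx2, which opens epoxides of fatty acids, rose by 0.54 ± 0.09, and Hsdl2, a peroxisomal dehydrogenase-like protein, by 0.49 ± 0.084, per the authors' deposited table. Reep6, a shaping protein of the endoplasmic reticulum, rose by 0.99 ± 0.17 per the authors' deposited table. All of them stood higher in G3 and G4 than in G1 and G2.

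Among the falls outside the lists, Tfcp2l1 (chromosome 1, 118627945 to 118685168), a transcription factor of the grainyhead family, was at 263, 246, 142 and 100.4 and fell by 1.30 ± 0.27 per the authors' deposited table (adjusted p = 0.000345). Aox1, an aldehyde oxidase, was at 1291, 1642, 1277 and 1009 and fell by 0.70 ± 0.15 per the authors' deposited table (adjusted p = 0.00124), with G2 the highest and G4 the lowest group. The putative sugar transporter Slc45a4 was at 758, 748, 685 and 468 and fell by 0.68 ± 0.14 per the authors' deposited table (adjusted p = 0.000190). The growth factor Fgf2 fell by 0.68 ± 0.17, the large-neutral amino acid transporter Slc43a1 by 0.87 ± 0.23 and Abat, which breaks down GABA, by 0.69 ± 0.16, per the authors' deposited table. Lmod3, which nucleates thin filaments in muscle, fell by 0.40 ± 0.11 and Tln2, the muscle talin, by 0.27 ± 0.068 per the authors' deposited table. The folate enzyme Aldh1l1 was at 135, 173, 131 and 97.2 and fell by 0.83 ± 0.21 per the authors' deposited table.

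Some called genes were chosen after their values were seen, because of their pattern over the groups. Abra (chromosome 15, 41864076 to 41869720), an actin-binding activator of SRF signalling in muscle, was at 6027, 5292, 6004 and 10542 and rose by 0.99 ± 0.20 per the authors' deposited table (adjusted p = 0.000285). Vgll2, a muscle cofactor of TEAD factors, was at 3894, 3804, 3933 and 5707 and rose by 0.59 ± 0.16 per the authors' deposited table. The amino acid transporter Slc38a2 was at 2059, 1903, 2151 and 3378 and the muscle growth factor Fgf6 at 134, 114, 131 and 228, and Slc38a2 rose by 0.83 ± 0.23 per the authors' deposited table. Fgf6 was called as well. In these 4 genes the rebuilt level of G4 was the high one and the other 3 lay close together. None of the 4 genes was called in G4 against G3 per the authors' deposited table (adjusted p from 0.0761 for Abra to 0.741 for Slc38a2). The matricellular gene Ccn1 rose by 0.76 ± 0.21, the endothelial receptor S1pr1 by 0.63 ± 0.16 and the gap junction gene Gja1 by 0.84 ± 0.20 per the authors' deposited table. Among falls, the TGF-beta mediator Smad3 was at 2132, 2276, 1662 and 1404 and the urocortin receptor Crhr2 at 1128, 1271, 1113 and 905, with falls of 0.70 ± 0.20 and 0.49 ± 0.14 per the authors' deposited table. When every gene was adjusted together, the calls of Slc38a2, Fgf6, Ccn1, Smad3 and Crhr2 were lost, and that of Vgll2 was lost when the dependence on GC content, length and total was removed.

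By annotation, 133 of the genes called higher and 45 of those called lower code for protein, and 8 processed pseudogenes were called higher, whose reads may belong to their parent genes. Hsp25-ps1, a copy of the heat shock gene Hspb1, rose by 0.84 ± 0.23, a call lost when the dependence on GC content, length and total was removed, while Hspb1 had 0.34 ± 0.21 and was not called, per the authors' deposited table. The largest fold of the table was that of the predicted gene Gm20503, which stood at 0.164 normalised reads per library in G2 and 71.5 in G4, with a standard error of 2.58 on the log2 scale, so that its size is undetermined, and its call was lost under each change of the genes adjusted or of the scaling. Gm12250 was at 4.55, 1.19, 17.4 and 36.6 and rose by 4.94 ± 1.02 per the authors' deposited table (adjusted p = 0.000429). Its annotation as a processed pseudogene was taken as given and not checked. With G2 near 1 read per library, its fold is likewise imprecise. The promoter window of Gm12250 held the interferon-stimulated response element. The gene is not a member of the interferon list, so the count of 1 call in that list leaves it out. The ribosomal RNA gene CT010467.1 was at 884423, 676160, 874079 and 449048 and fell by 0.59 ± 0.16 per the authors' deposited table (adjusted p = 0.0203). Both this gene and the 3 others above were named after their values were seen. A library of mRNA is meant to hold little of this RNA, and the part of its level in the other values was not tested beyond the rescaling given above. Genes called higher had a median GC content of 53.4% and those called lower 48.7%, against 50.6% for tested genes, and median transcript lengths of 1284 and 1782 bases against 1352. After the dependence on GC content, length and total was removed, 124 genes were called higher and 51 lower.

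The comparison of G3 with G1 uses none of these mice and was set beside G4 against G2. The spread behind the p-values was shared over all groups, however. The fold changes thus come from different mice, but the calls of the 2 comparisons are not independent. There, 49 genes were called higher (0.169% of all genes) and 12 lower (0.0414%) per the authors' deposited table. Calls in the same direction in both numbered 41 higher, which is 27.5% of those of G4 against G2 and 83.7% of those of G3 against G1, and 4 lower (7.84% and 33.3%). No gene was called in opposite directions. The adjustment covered all 28997 genes in G3 against G1 but 14539 in G4 against G2. With every gene adjusted in both, G4 against G2 had 115 calls higher and 36 lower, of which 40 (34.8%) and 2 (5.56%) were shared, 81.6% and 16.7% of the calls of G3 against G1. This comparison was chosen after seeing the data. Of the genes called higher in G4 138 of 149 had a positive value in G3 against G1, and of those called lower 37 of 51 a negative one, where 55.2% of all tested genes had the same sign. The median log2 of the genes called higher was 0.65 in G4 against G2 and 0.31 in G3 against G1. The first comparison chose the genes, so the 2 medians do not stand on equal terms.

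Mitochondrial fatty acid oxidation had 14 calls higher and a median of 0.32 in G3 against G1. Decr1 had 0.67 there against 0.62, Ech1 0.71 against 0.69 and Hadhb 0.48 against 0.50 per the authors' deposited tables. PPAR targets had 6 calls there against 13 in G4 against G2 with every gene adjusted in both, and a median of 0.36, with Ucp3 at -0.089, Pdk4 at 0.23 and Angptl4 at 0.55 per the authors' deposited tables. The difference of the 2 comparisons was 1.91 ± 0.46 for Ucp3, and it did not pass the test over 15494 genes (adjusted p = 0.294). For Pdk4 the difference was 2.09 ± 0.80 (adjusted p = 0.974), for Angptl4 3.92 ± 1.32 (adjusted p = 0.803) and for Cebpb 0.95 ± 0.38 (adjusted p = 1). Over all genes 1 difference was called (0.00645% of those tested), that of the Y-linked pseudogene Gm20775, named after its values were seen, at levels of 4.94, 16.9, 35.0 and 1.13, and 638 had an unadjusted p under 0.05, so that no gene of these pathways is shown to differ between the comparisons.

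**Figure D5:**
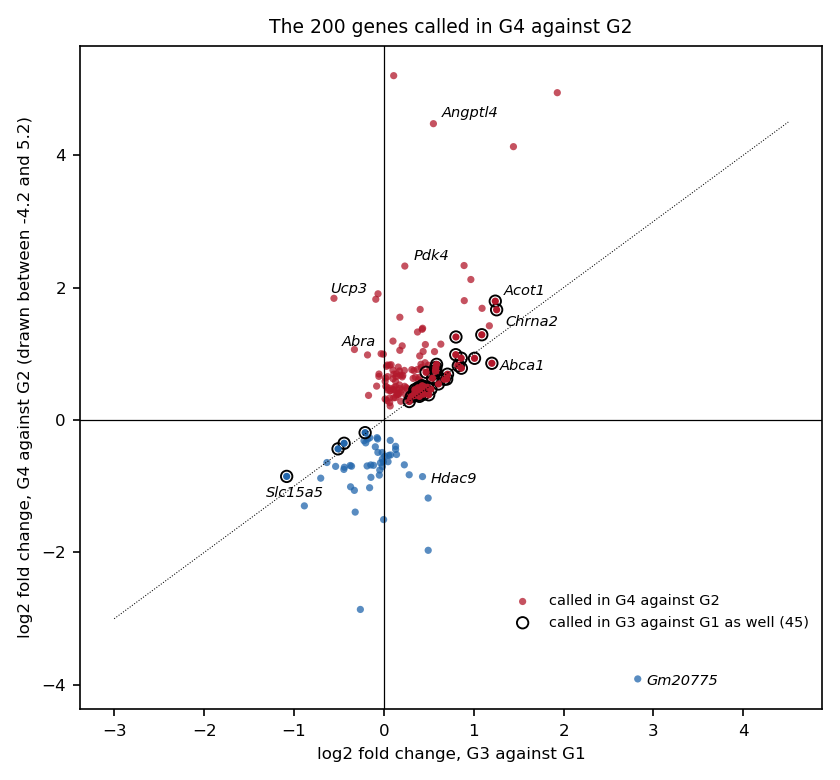
The 200 genes called in G4 against G2 by their log2 fold change in G3 against G1 (horizontal, other mice) and in G4 against G2 (vertical, values beyond the axis drawn at its edge). Red is called higher, blue called lower, rings mark the 45 genes called in both and the dotted line marks equal values. Ringed genes lie near the line, whereas Ucp3, Pdk4 and Angptl4 lie high above it and Gm20775 lies at the lower right.

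G2 stood at the edge of the range for most called genes. The comparisons of G2 with G1 and of G4 with G3 share mice with G4 against G2, so their values are given only side by side. Among genes called higher in G4, G2 was the lowest of the 4 groups in 138 of 149 (92.6%) and G4 the highest in 96 (64.4%). For all tested genes with a positive value these shares were 51.9% and 55.9%. Among genes called lower, G2 was the highest group in 44 of 51 and G4 the lowest in 44, 86.3% for each, against 51.9% and 54.6% of tested genes with a negative value. The call itself favours extreme positions of both groups. Side by side, G4 against G3 was 0.076 for Ucp3, 0.20 for Pdk4, -0.15 for Decr1, -0.28 for Chrna2, 0.81 for Abra and -0.34 for Aox1 per the authors' deposited table. None of these passed the test there. Rebuilt values of G2 against G1 were -1.84 for Ucp3, -1.89 for Pdk4, -0.091 for Decr1, -0.69 for Chrna2, -0.19 for Abra and 0.35 for Aox1.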

How the data were processed

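Soleus RNA of 12 mice was sequenced, and the authors deposited tables of comparisons between coded groups with no value per library. The tools were edgeR, RSEM 1.2.15 and Bowtie2 2.1.0, with mm10 or GRCm38 as build, per the submitters' processing notes, which do not tie a tool to a column. The authors' deposited total, headed as total counts, is a signal. It was taken as reads divided by library size factors and summed over the 12 libraries. This is an inference from the lowest totals and is stated by no header. The p-value columns and their step-up adjusted values are those the authors deposited, with a blank for 14458 genes. The signed fold change, treated as a score, and its log2 are also as the authors deposited them, per the file headers.

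From these, an implied standard error was computed as the log2 fold change over the normal quantile of its p-value, and group levels were solved from the total and 3 of the fold changes. Over 7427 abundant genes the dispersion implied by G4 against G2 was 1.01 times that of G3 against G1 at the median, so the spread behind the p-values was shared over all groups. The difference of the 2 comparisons was tested against the normal distribution with Benjamini-Hochberg adjustment over 15494 genes. Simulated counts were drawn with the implied dispersion, which was taken as known. There the test of the difference recovered 63 of 100 changes of a fold of 2 and 87 of 100 of a fold of 4. It made 8 false calls. The same formula for G4 against G2 recovered 79 and 96, with 6 false calls. With so many planted changes the adjustment was more lenient than in the data, where 1 difference was called. The shares recovered by the test of the difference therefore do not give its power in the data. The authors' own fit was not simulated, so their deposited calls were not tested. Python 3.11.15 with numpy 2.4.6, scipy 1.17.1, pandas 2.3.3 and statsmodels 0.14.6 was used. Symbols of 28063 genes matched GENCODE on GRCm38, from which coordinates were taken.

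Named genes are Nox1, Cdh5, the 25 calls with the smallest adjusted p in each direction with a mean of at least 1 CPM and no predicted genes, and in each list the calls, the 3 largest log2 values and, without a call, the 3 smallest p-values. The members, lists and rules were chosen with earlier results of these data known. Alternatives changed the genes adjusted, the thresholds, the scaling and the dependence on GC content, length and total.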

Additional observations from a re-analysis of the deposited data

Results flagged for a closer look

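Gm20775, an unprocessed pseudogene on the Y chromosome, was the 1 gene whose log2 fold change differed between the comparison of G4 with G2 and that of G3 with G1 (adjusted p = 0.0357 over 15494 genes, normal test on the implied standard errors). Its rebuilt levels were 4.94, 16.9, 35.0 and 1.13 normalised reads per library in G1 to G4. The log2 fold change was -3.91 for G4 against G2 and 2.83 for G3 against G1 per the authors' deposited tables. The levels are low, and no difference was called when every gene with both comparisons was adjusted together. The Y-linked genes Ddx3y, Eif2s3y, Kdm5d and Uty, named after their values were seen, were called in neither comparison. Their log2 fold changes were -0.13, -0.19, -0.26 and -0.15 for G4 against G2 per the authors' deposited tables. For G3 against G1 they were 0.036, -0.074, 0.074 and -0.12. Whether the groups differ in sex was not tested.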

How the results depend on the processing

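No paired analysis was possible because the deposited tables hold no value per library and the labels pair no mice, and for the same reason no mouse could be left out in turn. With an adjusted p under 0.01, 84 genes were called (74 higher, 10 lower), and with a fold of at least 1.5 also required 118 (86 higher, 32 lower). The difference between comparisons gave 0 calls over every gene. The other settings called 151 to 295 genes. With summed levels set equal, 170 of the 200 calls were shared with the 184 made then, and 155 with the 179 made without the ribosomal RNA gene, where 58.1% of calls were higher against 74.5% as deposited. Medians of lists near 0 changed sign: with equal summed levels, insulin signalling took -0.017, and without the ribosomal RNA gene glycolysis took -0.016, insulin signalling -0.032, ketone metabolism -0.012, mitochondrial dynamics -0.0038, the proteasome -0.013, the ATF4 list -0.037 and the ribosome -0.022. ATF4 targets took -0.0098 with a minimum total of 10. No named gene that was called reversed. Under the scaling, filter and covariate settings, 231 to 246 named genes kept their side of the threshold, and a change of sign without a call was not counted. Of the genes the rule names, calls lost under at least 1 of them were those of Acadm, Cat, Eng, Fabp4, Flt4, Hdac9, Ldhb, Pfkl and Pnpla2. Among genes named after their values were seen, they were those of Ccn1, Crhr2, Fgf6, Gm20503, Gm20775, Hsp25-ps1, Slc38a2, Smad3 and Vgll2. Among genes named as holders of the direct repeat, they were those of Ccdc71l, Chmp4b, Rras and Tomm70a. The cause was not tested.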
